A study of Mus musculus with 15 samples.

Results

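The nuclear-encoded subunits of the mitochondrial respiratory chain and of ATP synthase were followed in 266-6 cells, an acinar cell line from a mouse pancreatic tumour. Members were all genes whose mouse symbol begins with Nduf, Uqcr, Cox4 to Cox8 or Atp5, together with Sdha, Sdhb, Sdhc, Sdhd and Cyc1, and 7 entries named as pseudogenes were left out. The rule gave 98 of the 43432 genes counted. Of these, 47 belong to complex I, 4 to complex II, 9 to complex III, 21 to complex IV and 17 to complex V. The complex I genes include 8 assembly factors (the Ndufaf genes), which help to build the complex and are not part of it. Ndufa4 and its isoform Ndufa4l2 were placed with complex IV, where the Ndufa4 protein is found. The annotation calls 4 members processed pseudogenes (Cox6c2, Ndufa11b, Ndufb4c and Ndufs6b), and they stayed in because their symbols do not say so.

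The 5 groups of 3 libraries were AM580 (an agonist of the retinoic acid receptor alpha), CD3254 (an agonist of its partner, the retinoid X receptor), AM+CD (both agonists), 9-cis retinoic acid (a natural ligand of both receptor families) and the vehicle DMSO. All cells spent 24 h in stripped medium and then 24 h with ligand or vehicle. The labels give no concentrations and do not say whether replicates were separate cultures; each p-value therefore reflects library-to-library spread that may be technical. All libraries come from 1 established tumour line, and the labels give no batch.

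The respiratory chain passes electrons from NADH and succinate to oxygen and pumps protons, and complex V uses the proton gradient to make ATP. Complex I (NADH dehydrogenase), complex II (succinate dehydrogenase), complex III (cytochrome bc1) and complex IV (cytochrome c oxidase) hold many nuclear-encoded subunits, while complexes I, III, IV and V also hold subunits encoded by mitochondrial DNA. Several complex IV subunits have alternative isoforms in muscle, testis or low oxygen, and acinar cells draw on respiration to make and secrete digestive enzymes.

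Gene counts per library ran between 28501170 and 46801058 in 14 libraries and came to 14600962 in 9-cis retinoic acid replicate 3, where 63.0% of the counted reads were assigned to no gene. Of the 15 libraries, 5 stood apart on the first principal component of 16736 tested genes, which held 48.3% of the variance: AM580 replicate 1, CD3254 replicate 1, AM+CD replicate 2, 9-cis retinoic acid replicate 1 and DMSO replicate 1. The same 5 stood apart when the members and the mitochondrially encoded genes were left out, with scores between -89.6 and -59.3, against 25.2 to 40.1 in the other 10. They are called the 5 libraries below. What set them apart is not in the labels, and since they were found in these counts, values of the 5 and of the other 10 are described with no p-value. Of 25 targets of the hypoxia-inducible factors (HIF), 24 (96.0%) were higher in all of the 5 libraries than in any of the other 10. Of all genes tested, 13.4% were higher and 12.6% lower without overlap. The HIF target Slc2a1, a glucose transporter, stood between 254 and 326 CPM in the 5 libraries, against 7.40 to 23.8 CPM. CPM are counts over the TMM-adjusted library size. Of 14 acinar markers 13 passed the filter, and 11 of the 13 had a difference below 0. Without overlap, 1 (7.69%, Bhlha15) was higher and 3 (23.1%, Cel, Rbpjl and Ptf1a) were lower in the 5 libraries. The 13 markers had a median difference within treatments of -0.68 (log2), and -0.84 without the AM580 libraries. The acinar list summed to between 6516 and 11889 CPM in the 5 libraries, median 6672, against 7525 to 11613 CPM in the other 10, median 10257. The immune list (4 genes) summed to between 9.60 and 23.9 CPM in the 5 libraries and 4.39 to 8.24 CPM in the other 10, nearly all of it Cd68, with Ptprc, Cd3e and Adgre1 at or near 0. The ductal list summed to between 64.1 and 89.3 CPM in the 5 libraries, against 54.7 to 85.2 CPM. The endocrine list summed to between 241 and 447 CPM in the 5 libraries, against 166 to 359 CPM, nearly all of it Chga, with the islet hormone genes Ins1, Ins2, Gcg and Sst at or near 0. The stromal list summed to between 169 and 221 CPM in the 5 libraries, against 163 to 348 CPM, mostly Pdgfrb, and of its 4 tested genes Col1a1 was higher and Col1a2 lower without overlap, with Lum at or near 0. The endothelial list summed to between 1.15 and 1.59 CPM in the 5 libraries, against 1.13 to 3.42 CPM, with Cdh5 at or near 0. The part of other cell types in the differences below was not tested.

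A total of 94 members passed the filter on low counts. The 4 that did not were Cox7b2 and Cox8c, with 0 counts in every library, Cox8b with at most 2 counts in a library, and the pseudogene Ndufa11b with at most 6. No member changed with a ligand past an adjusted p of 0.05 in any of 7 contrasts. Between the library sets, 6 of the 94 members had levels that did not overlap. Ndufa4l2, Cox4i2, Ndufv3 and Cox7a2l were higher in the 5 libraries, and the complex I assembly factors Ndufaf4 and Ndufaf2 were lower. The higher ones are 4.26% of the members, against 13.4% of all genes tested, and the lower ones 2.13%, against 12.6%.

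Promoters of 4 of these 6 genes, from RefSeq on GRCm38.p6, are shown because their members moved in opposite directions between the library sets. Each runs from 250 bases before the start to 50 bases after it, read 5′ to 3′ on the gene's strand. RefSeq sequences were found for 74 of the 98 members, and Ndufa4l2 and Cox4i2 were not among them. Capitals mark the core of HIF-binding sites (ACGTG or GCGTG) and the letters CATGCGC, the core bound by NRF1, a factor known to control many respiratory genes, each searched on both strands. In Ndufaf4 the first run in capitals holds CATGCGC on both strands, which overlap. Ndufv3 lies at chr17:31519865-31520164 (+), Cox7a2l at chr17:83514284-83514583 (-), Ndufaf4 at chr4:24897833-24898132 (+) and Ndufaf2 at chr13:108158576-108158875 (-). The Cox7a2l window surrounds a RefSeq start that lies inside the outer gene bounds of the GENCODE annotation.
Ndufv3: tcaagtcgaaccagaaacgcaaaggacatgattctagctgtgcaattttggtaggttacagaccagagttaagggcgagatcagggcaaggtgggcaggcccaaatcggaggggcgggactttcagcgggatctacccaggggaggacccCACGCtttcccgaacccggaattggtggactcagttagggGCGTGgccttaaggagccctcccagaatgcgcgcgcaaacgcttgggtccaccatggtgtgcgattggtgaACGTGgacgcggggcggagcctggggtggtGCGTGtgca
Cox7a2l: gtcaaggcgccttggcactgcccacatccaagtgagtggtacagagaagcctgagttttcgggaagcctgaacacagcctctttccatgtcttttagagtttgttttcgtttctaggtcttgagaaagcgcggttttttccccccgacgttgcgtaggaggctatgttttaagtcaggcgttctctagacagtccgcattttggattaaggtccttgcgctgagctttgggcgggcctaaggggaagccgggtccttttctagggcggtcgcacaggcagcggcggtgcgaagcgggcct
Ndufaf4: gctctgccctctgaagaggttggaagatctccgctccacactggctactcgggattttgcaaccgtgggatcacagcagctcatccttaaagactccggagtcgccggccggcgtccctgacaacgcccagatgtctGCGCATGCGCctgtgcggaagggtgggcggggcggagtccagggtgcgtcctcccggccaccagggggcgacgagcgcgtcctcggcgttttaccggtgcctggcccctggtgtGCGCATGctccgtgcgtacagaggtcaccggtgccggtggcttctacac
Ndufaf2: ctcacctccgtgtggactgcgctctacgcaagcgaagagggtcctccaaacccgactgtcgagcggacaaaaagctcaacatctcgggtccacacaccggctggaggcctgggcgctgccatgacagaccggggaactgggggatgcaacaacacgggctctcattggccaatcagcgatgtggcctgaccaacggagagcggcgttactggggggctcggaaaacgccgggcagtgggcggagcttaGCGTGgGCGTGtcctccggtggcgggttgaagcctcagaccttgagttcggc

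In the Ndufv3 window GCGTG starts at -60 and +42 and, on the other strand, at -100, and ACGTG starts at +12. In the Ndufaf2 window GCGTG starts at -2 and +5. The Ndufaf4 window holds CATGCGC at -113, -110 and +2, and the Cox7a2l window holds none of these letters. GCGTG stood in 55.7% of 79 member promoters and in 32.4% of all 32851 promoters, and ACGTG in 22.8% and 19.6%. CATGCGC stood in 19.0% of member promoters and 3.91% of all, and CCGGAAG, a core bound by ETS factors, in 22.8% and 8.86%. A match of letters is a description and shows no binding.

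Ndufa4l2 (chr10:127514967-127517154 on GRCm38, plus strand), an isoform of Ndufa4 known as a HIF target that lowers oxygen use, had the widest difference of any member. It stood at 79.7 CPM in AM580 replicate 1, 28.7 in CD3254 replicate 1, 41.7 in AM+CD replicate 2, 38.5 in 9-cis retinoic acid replicate 1 and 28.9 in DMSO replicate 1. In the other 10 libraries it ranged between 0.86 and 3.76 CPM, with a median of 1.31 CPM. The lowest of the 5 was thus above the highest of the other 10. The difference within treatments, each of the 5 libraries minus the mean of the other 2 of its treatment, averaged 4.68 ± 0.91 on the log2 scale (SD over 5 treatments), or 25.7-fold. Its exons overlap those of Shmt2 on the opposite strand, and the strand setting of the counting is not given in the sources used here. Shmt2 stood between 833 and 1036 CPM in the 5 libraries and between 825 and 1207 CPM in the other 10, so the levels of Shmt2 overlapped where those of Ndufa4l2 did not.

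Cox4i2 (chr2:152754173-152765037, plus strand), the isoform of subunit 4 of cytochrome c oxidase known for its rise at low oxygen, was also higher in the 5 libraries. Its level was 194 CPM in AM580 replicate 1, 69.7 in CD3254 replicate 1, 90.2 in AM+CD replicate 2, 99.8 in 9-cis retinoic acid replicate 1 and 72.7 in DMSO replicate 1. The other 10 libraries ran between 13.5 and 29.7 CPM, with a median of 20.9 CPM. The mean difference within treatments was 2.21 ± 0.70 (log2, SD over 5 treatments), or 4.63-fold. Cox4i1, the common isoform, overlapped between the sets, at 300 to 707 CPM in the 5 libraries and 230 to 460 CPM in the other 10.

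Ndufv3 (chr17:31520115-31531331, plus strand), a supernumerary subunit of the NADH-binding module of complex I, was the only complex I subunit that did not overlap upward. It measured 254, 163, 166, 175 and 149 CPM in the 5 libraries of AM580, CD3254, AM+CD, 9-cis retinoic acid and DMSO, against 56.9 to 91.1 CPM in the other 10, median 75.2 CPM. The mean difference within treatments was 1.26 ± 0.40 (log2, SD over 5 treatments), or 2.39-fold. Ndufv1 and Ndufv2, core subunits of the same module, overlapped between the sets, with Ndufv1 at 159 to 232 CPM in the 5 libraries and 148 to 229 CPM in the other 10, and Ndufv2 at 146 to 266 CPM in the 5 libraries and 111 to 177 CPM in the other 10.

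Cox7a2l (chr17:83501918-83517330, minus strand) encodes a factor that joins complexes III and IV into a supercomplex. It stood at 333, 142, 175, 174 and 159 CPM in the 5 libraries, in the same order of treatments, against 80.3 to 132 CPM in the other 10. The gap was narrow, since CD3254 replicate 1 lay just above the highest of the other 10. The mean difference within treatments was 0.82 ± 0.58 (log2, SD over 5 treatments), or 1.77-fold, and 0.59 without the AM580 libraries.

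Ndufaf4 (chr4:24898083-24905001, plus strand) and Ndufaf2 (chr13:108002715-108158623, minus strand) were the members whose 5 values all lay below the other 10. Ndufaf4 measured 5.61, 12.0, 6.81, 11.5 and 9.20 CPM in the 5 libraries of AM580, CD3254, AM+CD, 9-cis retinoic acid and DMSO, against 13.1 to 31.0 CPM in the other 10, median 25.7 CPM. Ndufaf2 measured 11.9, 9.28, 10.5, 13.4 and 8.46 CPM in the 5 libraries, against 15.5 to 23.0 CPM in the other 10, median 20.1 CPM. The mean differences within treatments were -1.48 ± 0.64 for Ndufaf4 and -0.87 ± 0.27 for Ndufaf2 (log2, SD over 5 treatments). The value nearest to the 5 for Ndufaf4 was 9-cis retinoic acid replicate 3, the shallow library, and under total-count scaling Ndufaf4 overlapped and only Ndufaf2 remained. Exons of Ndufaf2 overlap B230220B15Rik on the opposite strand.

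**Figure D1:**
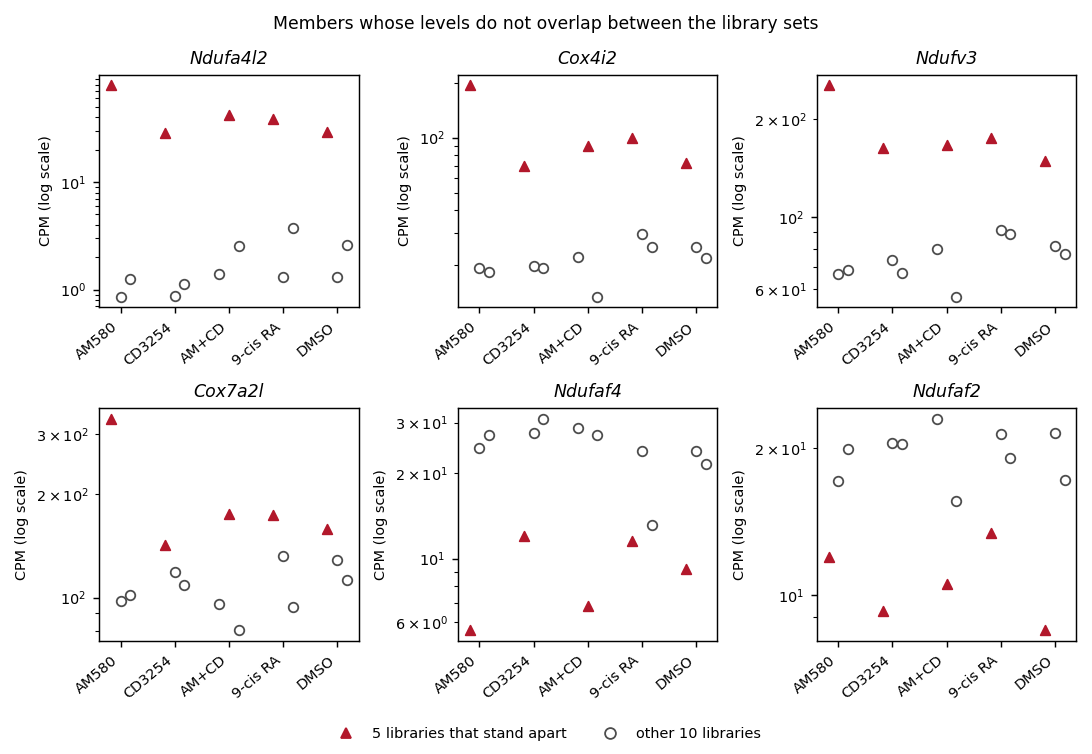
CPM on a log axis (each panel with its own range) for the 6 members whose levels did not overlap between the library sets, by treatment with DMSO at the right. Triangles are the 5 libraries and circles the other 10; in each panel all triangles lie on one side of all circles, above for Ndufa4l2, Cox4i2, Ndufv3 and Cox7a2l and below for Ndufaf4 and Ndufaf2.

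These 6 are few beside the background. The 4 members higher in the 5 libraries are 4.26% of 94, where 13.4% of all genes tested were higher without overlap, and the 2 lower members are 2.13%, where 12.6% of all genes were lower. So a smaller share of the members than of all genes was parted by the library sets, a difference that was not tested. The median difference within treatments over the 94 members was 0.10 (log2), with 63 above 0 and 31 below, and over all genes 0.00. That median changed sign to -0.08, with 40 above 0, when the AM580 libraries were left out, since the medians by treatment were 0.78 in AM580, -0.24 in CD3254, 0.21 in AM+CD, 0.08 in 9-cis retinoic acid and -0.24 in DMSO.

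AM580 replicate 1 stood apart from all other libraries in the members' common level. The median member was 0.69 above its own median of 15 libraries (log2), with 86 of 94 members above, and the 98 genes of the cytosolic ribosome had a median of 1.01 in the same library. AM+CD replicate 3 lay lowest, at a median of -0.36 with 3 of 94 members above, and its cytosolic ribosome genes at -0.52. 9-cis retinoic acid replicate 2 followed at 0.29 with 87 above. Across the 94 members the deviation and the exon length of the gene had a Spearman correlation of -0.36 in AM580 replicate 1 and 0.52 in AM+CD replicate 3, given as a description since genes of 1 library share its RNA. The part of RNA quality or of length in these shifts was not tested. CPM are shares of a library, so less of this RNA per cell, fewer cells that hold it and more of other RNA cannot be told apart.

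**Figure D2:**
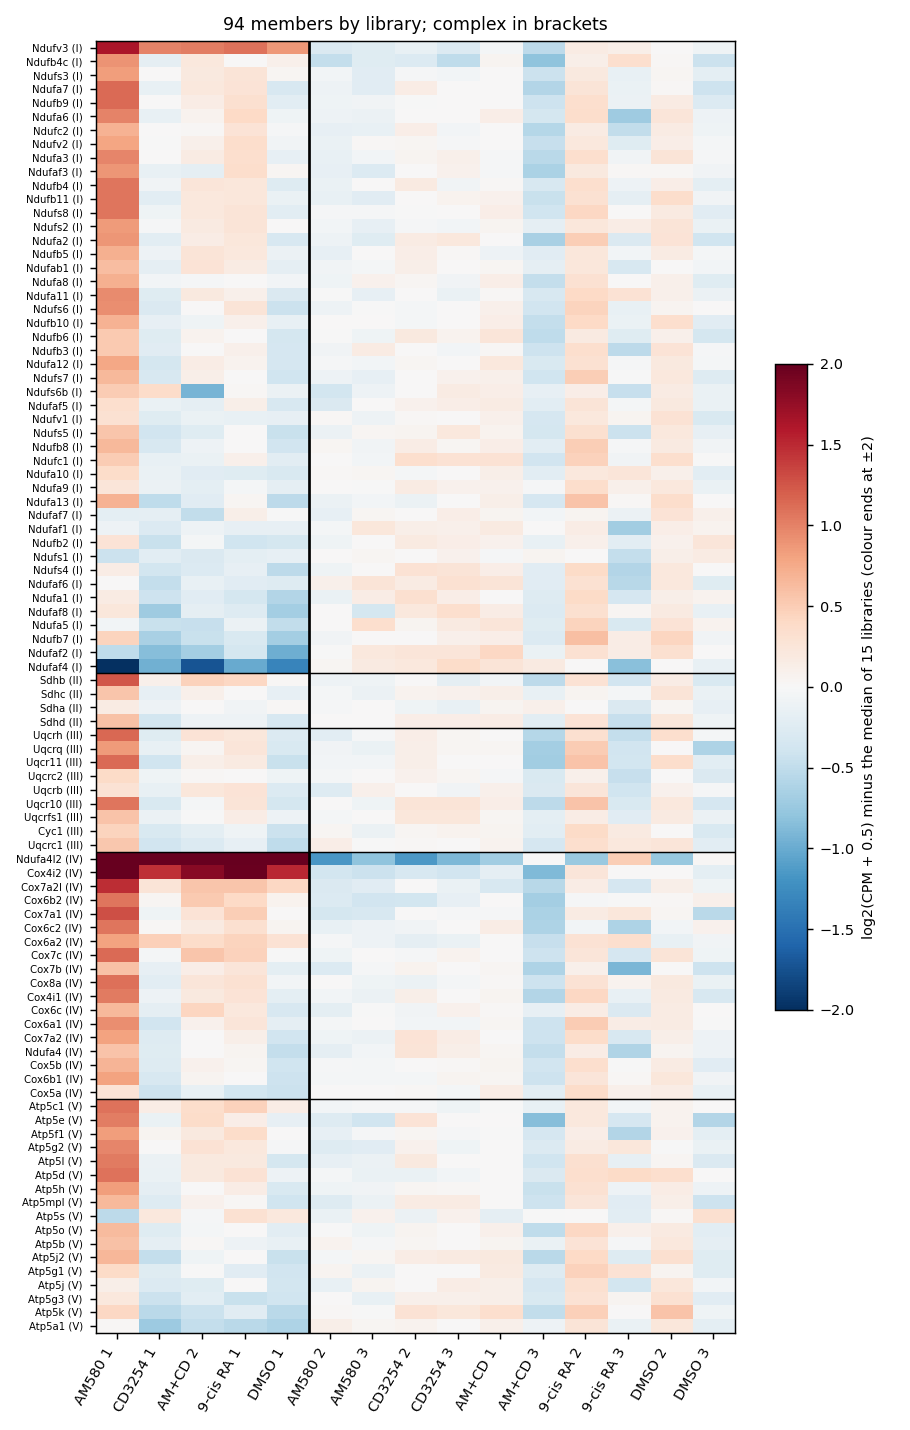
Levels of the 94 members (rows, complex in brackets) in the 15 libraries (columns), as log2(CPM + 0.5) minus the row's median; the 5 libraries are left of the vertical line and colours end at 2 in either direction. AM580 replicate 1 is red in most rows, AM+CD replicate 3 is mostly blue, and the rows of Ndufa4l2, Cox4i2, Ndufv3 (red) and Ndufaf4 (blue) have their darkest cells left of the line.

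Because such shifts move all members at once, each member was also set against the median member of its library. On that scale 5 members (5.32%) were higher in the 5 libraries without overlap and 11 (11.7%) lower, where all genes tested gave 6.11% and 10.2%. The median member was subtracted from every gene, so the members' own shifts enter the shares of all genes as well. Those shares, which were 13.4% and 12.6% before, are therefore no independent background. Sdhb, the iron-sulphur subunit of succinate dehydrogenase, joined the 4 higher members, at 0.40 ± 0.08 relative to the median member (log2, SD over 5 treatments). The 9 further lower members were the alpha subunit of ATP synthase Atp5a1 at -0.67 ± 0.24, Ndufb7, Ndufa5, Atp5k, Ndufa1, Atp5g3, Cox5a, Uqcrc1 and Ndufb8, the last at -0.26 ± 0.09. Ndufaf4 was at -1.64 and Ndufaf2 at -1.04 on this scale, and Ndufa4l2 at 4.52, Cox4i2 at 2.05, Ndufv3 at 1.09 and Cox7a2l at 0.66.

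By complex, complex I summed to between 3236 and 6140 CPM in the 5 libraries, median 3825, against 2980 to 4673 CPM in the other 10, median 3722. Complex II summed to between 634 and 1050 CPM in the 5 libraries, against 569 to 766 CPM in the other 10. Complex III summed to between 1241 and 2464 CPM in the 5 libraries, against 1197 to 1959 CPM in the other 10. In each case the ranges overlapped, and AM580 replicate 1 gave the upper end among the 5. Complex IV summed to between 2279 and 4948 CPM in the 5 libraries, median 2995, against 1895 to 3164 CPM in the other 10, median 2518. Complex V summed to between 5520 and 9861 CPM in the 5 libraries, median 6272, against 5535 to 7915 CPM in the other 10, median 6531. Taking out AM580 replicate 1, no complex had sums outside the range of the other 10 except that the lowest of the 5 for complex V, CD3254 replicate 1, lay just under it.

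The mitochondrially encoded subunits, which join the same complexes I, III, IV and V, did part. Of these 13 genes, 10 (76.9%) were lower in all of the 5 libraries, where 12.6% of all genes tested were. The 13 genes summed to between 14484 and 19814 CPM in the 5 libraries, against 23689 to 36629 CPM in the other 10. The median difference within treatments was -1.35 (log2), with mt-Nd1, a membrane subunit of complex I, at 549 to 891 CPM in the 5 libraries and 2389 to 3010 CPM in the other 10. The median over the nuclear-encoded complex I members was 0.04 on the same scale. Without the AM580 libraries the medians were -1.20 for the mitochondrially encoded genes and -0.14 for the complex I members, with 16 above 0 and 30 below.

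**Figure D3:**
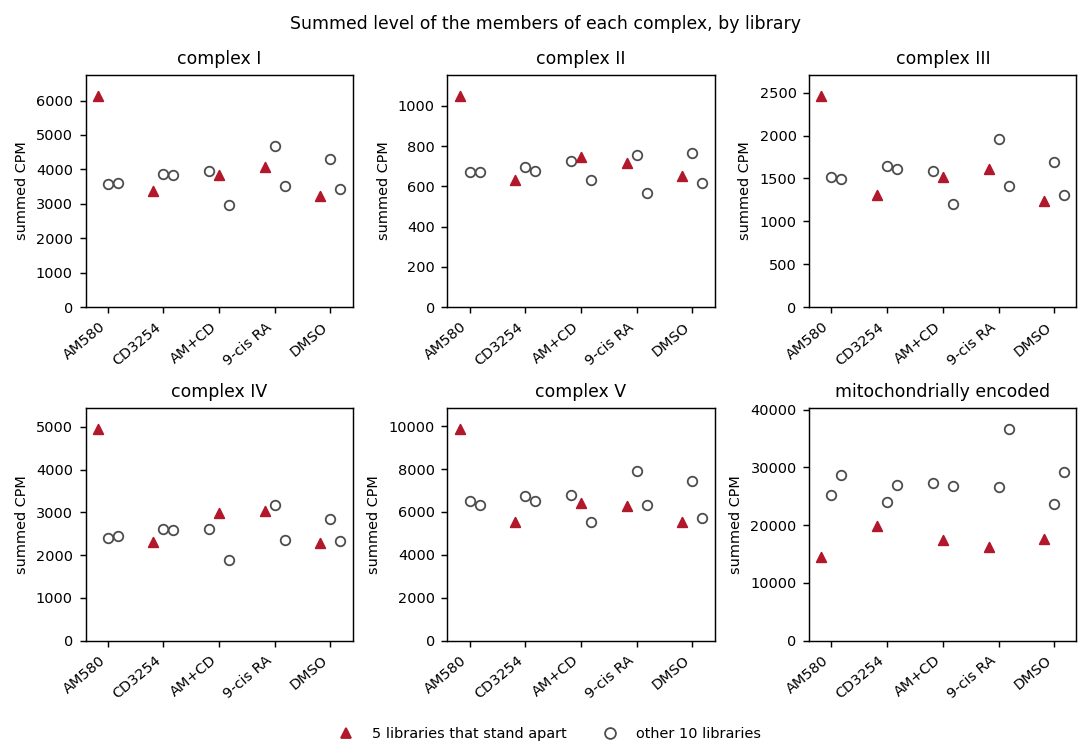
Summed CPM of the members of each complex, and of the 13 mitochondrially encoded genes, by treatment with DMSO at the right and axes starting at 0. Triangles (the 5 libraries) and circles (the other 10) overlap for the nuclear-encoded complexes, with AM580 replicate 1 highest, and are apart for the mitochondrially encoded genes.

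Within complex I, the 7 tested core subunits, which carry the flavin and iron-sulphur centres, had a median difference of 0.24 (log2) and the 29 supernumerary subunits 0.08, and only Ndufv3 did not overlap. Without the AM580 libraries these medians were 0.03 and -0.09. The 8 assembly factors had a median of -0.24, with 7 below 0, and -0.26 without the AM580 libraries. The 10 complex I assembly factors outside the symbol rule had a median of 0.03, with 5 above 0 and 5 below. Without the AM580 libraries their median was -0.04. Ndufb4c, a pseudogene, had the next highest difference after Ndufv3, 0.55 ± 0.67, at 1.35 to 3.40 CPM in the 5 libraries and 0.70 to 2.14 CPM in the other 10, which overlap. Ndufa7, a supernumerary subunit, stood at 0.33 ± 0.62. Without the AM580 libraries the differences were 0.30 for Ndufb4c and 0.09 for Ndufa7. Per kilobase of exon, Ndufb9 and Ndufc2, both supernumerary subunits of the membrane arm, had the highest complex I levels, at medians of 204 and 165 CPM per kilobase. The assembly factors had a median of 7.23 CPM per kilobase, against 62.6 CPM per kilobase for 36 complex I subunits. Exon length, here and below, covers all annotated transcripts of a gene, with 754 bases for Ndufc2 and 6883 for Ndufab1. Ranks and levels per kilobase thus depend on the annotation.

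In complex II the highest difference was that of Sdhb, at 136 to 315 CPM in the 5 libraries and 92.6 to 163 CPM in the other 10, 0.57 ± 0.50 (log2, higher in 5 of 5 treatments). Sdha, the flavoprotein that oxidises succinate, was nearly even over all libraries, at 234 to 279 CPM in the 5 libraries and 204 to 268 CPM in the other 10. The membrane anchors Sdhc and Sdhd had differences of 0.06 ± 0.36 and -0.08 ± 0.42. Without the AM580 libraries these were 0.38 for Sdhb, -0.09 for Sdhc and -0.24 for Sdhd. Complex II levels per kilobase ran between 48.9 and 121 CPM, with Sdhd the highest and Sdha at 60.7.

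In complex III, none of the 9 members was free of overlap, and their median difference was 0.12 (log2), which turned to -0.06, with 4 above 0 and 5 below, without the AM580 libraries. The differences were 0.28 ± 0.70 for Uqcrh, the hinge protein, and 0.26 ± 0.44 for Uqcrq at the high end. They were -0.20 ± 0.41 for Uqcrc1, a core protein, and -0.13 ± 0.36 for Cyc1, cytochrome c1, at the low end. Each SD was larger than its mean difference. Without the AM580 libraries the values were 0.03 for Uqcrh, 0.08 for Uqcrq, -0.37 for Uqcrc1 and -0.28 for Cyc1. Uqcr10 and Cyc1 were the most abundant per kilobase, at 202 and 194 CPM per kilobase.

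Complex IV had the highest median difference of the complexes, 0.31 (log2), with 17 of 18 members above 0, and 0.16 with 12 of 18 above 0 without the AM580 libraries. The 98 genes of the cytosolic ribosome had the same median, 0.31, with 85 above 0. Without the AM580 libraries theirs was 0.12, with 66 above 0. The 3 complex IV members without overlap were Ndufa4l2, Cox4i2 and Cox7a2l, all higher. They are 16.7% of the 18, where 13.4% of all genes tested were higher without overlap. At the low end were Cox5a, a subunit on the matrix side, at -0.26 ± 0.34, and Cox6b1 at 0.02 ± 0.54, and without the AM580 libraries they were at -0.39 and -0.18. Cox6b1 and Cox6a1 were the most abundant per kilobase, at 497 and 469 CPM per kilobase.

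Within isoform pairs, the share of the alternative isoform in the pair's level per kilobase removes any shift that both share. Lengths cover the exons of all annotated transcripts of a gene (788 bases for Cox4i2, 1550 for Cox4i1). The size of a share thus depends on the annotation, while the order of the libraries by share does not. Ndufa4l2 made up 18.9% to 27.1% of the Ndufa4l2 and Ndufa4 pair in the 5 libraries, median 21.7%, against 0.50% to 3.80% in the other 10, median 0.87%. Cox4i2 made up 29.9% to 35.0% of the Cox4i2 and Cox4i1 pair in the 5 libraries, median 32.1%, against 9.53% to 13.8% in the other 10, median 10.6%. Cox6b2, the testis isoform of subunit 6b, made up 3.27% to 3.72% in the 5 libraries, against 2.09% to 3.00% in the other 10. All 3 shares were parted with no overlap. The shares of the muscle isoforms overlapped, with Cox6a2 at a median share of 8.49% in the 5 libraries against 6.75%, and Cox7a1 at 29.0% against 21.2%. Cox7a1 overlapped only through 9-cis retinoic acid replicate 3, the shallow library, at 31.6%. The next highest of the other 10 was AM+CD replicate 1 at 23.4%, and the lowest of the 5 was 26.1%. The levels of Cox6b2, Cox6a2 and Cox7a1 overlapped, with differences of 0.61 ± 0.56, 0.53 ± 0.28 and 0.55 ± 0.66 (log2, SD over 5 treatments). Without the AM580 libraries these were 0.41, 0.45 and 0.28.

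For the common partners, each mean difference was smaller than its SD. Ndufa4 had a difference of 0.06 ± 0.49, Cox7a2 of 0.07 ± 0.55, Cox6a1 of 0.11 ± 0.53, Cox4i1 of 0.29 ± 0.53, Cox8a of 0.30 ± 0.53 and Cox7b of 0.33 ± 0.41 (log2, SD over 5 treatments). Without the AM580 libraries these were -0.10, -0.14, -0.10, 0.08, 0.09 and 0.22, in the same order. The testis or muscle isoforms Cox7b2, Cox8b and Cox8c were at or near 0 in every library. At a floor of 3 counts a library, none of these 3 was detected.

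The median difference over complex V was 0.05 (log2), and -0.10 without the AM580 libraries. Atp5c1 (the gamma subunit of the rotor) and Atp5e (the epsilon subunit) had the highest differences, 0.45 ± 0.40 and 0.43 ± 0.65, and 0.28 and 0.20 without the AM580 libraries. Atp5c1 was higher in 5 of 5 treatments, at 270 to 518 CPM in the 5 libraries and 221 to 284 CPM in the other 10. At the low end, Atp5a1 had a difference of -0.51 ± 0.27 and was lower in 5 of 5 treatments, and Atp5k, subunit e of the membrane sector, had -0.40 ± 0.49, and without the AM580 libraries they had -0.62 and -0.60. Atp5b, the catalytic beta subunit, had the highest level of any member, with a median of 2813 CPM and 664 CPM per kilobase, and a difference of 0.01 ± 0.33, or -0.13 without the AM580 libraries. Atp5a1, its partner in the catalytic ring, was next within complex V at 268 CPM per kilobase. The 3 genes for the c ring subunit differed in sign, with Atp5g2 at 0.34 ± 0.52, Atp5g1 at -0.14 ± 0.38 and Atp5g3 at -0.29 ± 0.37, and at 0.12, -0.28 and -0.43 without the AM580 libraries.

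**Figure D4:**
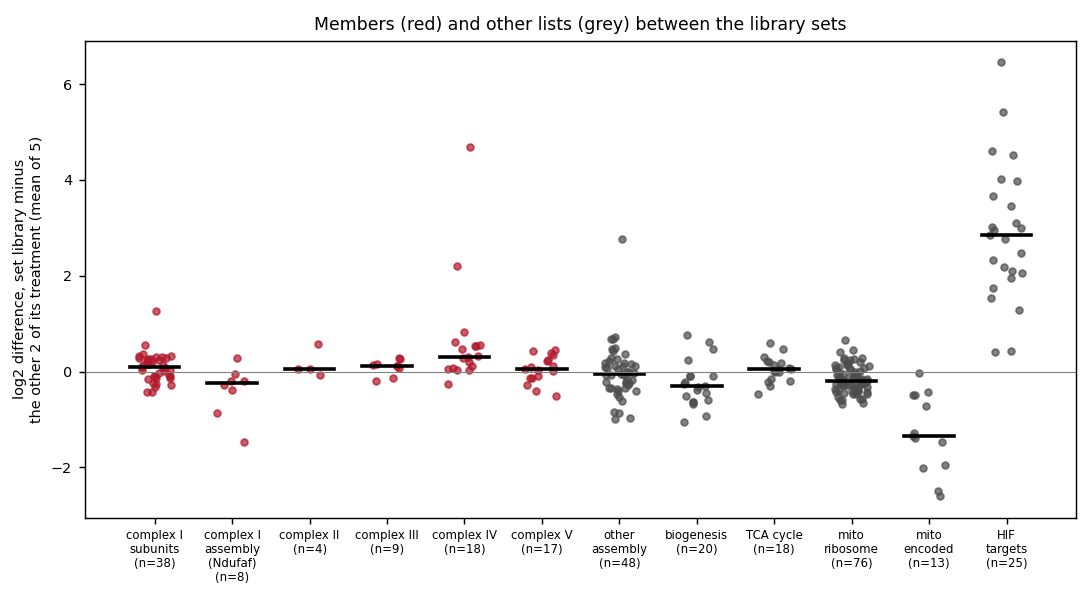
Mean within-treatment log2 difference of the 5 libraries from the other 2 of their treatment, 1 point per gene, with a bar at the median of each group; members in red, other lists in grey. The complexes centre near 0, with Ndufa4l2 at 4.68 and Cox4i2 at 2.21 above and Ndufaf4 at -1.48 below, while HIF targets centre at 2.85 and mitochondrially encoded genes at -1.35.

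Other genes of respiration were read beside the members and beside all genes tested, of which 13.4% were higher and 12.6% lower without overlap. Among 48 assembly factors outside the symbol rule, 3 (6.25%) were higher and 8 (16.7%) lower in the 5 libraries without overlap, with Sco1 and Coa7, both needed to build complex IV, at -0.99 and -0.98 (log2). Higd1a, which binds complex IV and is also among the 25 HIF targets, was at 2.76. Among 20 regulators of mitochondrial biogenesis, 1 (5.0%) was higher and 6 (30.0%) lower, with Pprc1, a coactivator, at -1.06 and Lrpprc, which stabilises mitochondrial mRNAs, at -0.92. Among 18 genes of the citric acid cycle and pyruvate dehydrogenase, 3 (16.7%) were higher and 1 (5.56%) lower, with Pdha1 at 0.60. Of 16 genes of electron carriers, 1 (6.25%) was higher and 3 (18.8%) lower, with Coq4 at -1.06. Of 76 mitochondrial ribosomal protein genes, 0 were higher and 4 (5.26%) lower, and of 98 cytosolic ones 5 (5.1%) were higher and 3 (3.06%) lower. No difference of these shares from those of all genes was tested.

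The ligands were tested with edgeR's quasi-likelihood model over all 15 libraries, with Benjamini-Hochberg adjustment over all genes. AM580, CD3254 and 9-cis retinoic acid against DMSO called 0 of the 94 members, where 0.0% of all genes were called in each. AM+CD against DMSO called 0 members, where 0.0179% of genes (3) were called. AM+CD against AM580, AM+CD against CD3254 and the interaction of both agonists called 0 members, where 0.0% of genes were called in each. No member reached an unadjusted p of 0.05 in any of these contrasts, and DESeq2 also gave 0 at that level. With the library set as a term, 0 members were again called. In that fit 0.0299% of genes were called for AM580, for 9-cis retinoic acid and for AM+CD against CD3254, 0.0239% for CD3254, 0.125% for AM+CD, 0.012% for AM+CD against AM580 and 0.0% for the interaction. Cyc1 and Cox6a2 then reached an unadjusted p of 0.05 for 9-cis retinoic acid, both upward, at 0.41 ± 0.18 and 0.36 ± 0.16 (log2, SE), with an adjusted p of 0.98. These are 2 of 94 members, where 3.97% of all genes (665 of 16736) reached that unadjusted p in the same fit.

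These counts of 0 rest on wide intervals. The 95% interval of a fitted log2 change against DMSO had a median distance of 0.56 from estimate to bound, without the library set term. For AM580, 67 of 94 members had an interval inside a 2-fold change either way, for CD3254 85, for AM+CD 87 and for 9-cis retinoic acid 81. Ndufa4l2 and Cox4i2 were the least bounded, with 1 library of each treatment far above its other 2. Ndufa4l2 had an AM580 change of 1.31 ± 1.93 (log2, SE). With the library set term it was 0.18 ± 0.48. Sdha was the best bounded, with an AM580 change of 0.08 ± 0.13 and an interval between -0.20 and 0.36.

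With AM580 the members' median log2 change against DMSO was 0.30, with 91 of 94 above 0, where the median of all genes was 0.02. This value rests on AM580 replicate 1, since AM580 replicates 2 and 3 had medians of -0.08 and -0.05 relative to the 15 libraries, with 13 and 25 of 94 members above 0. Ndufa7 had the smallest p, at 336, 143 and 130 CPM with AM580, against 122, 155 and 115 CPM with DMSO, a change of 0.64 ± 0.32 (log2, SE, edgeR, unadjusted p = 0.068, adjusted p = 1.00). AM580 replicate 1 alone was above the DMSO libraries' range. Uqcrq stood at 201, 106 and 102 CPM with AM580, against 90.3, 111 and 72.1 CPM with DMSO, a change of 0.58 ± 0.30. Without AM580 replicate 1 the median over members was 0.00, and Ndufa7 had a change of 0.07. Among libraries outside the 5, AM580 minus DMSO had a median of -0.08 with 18 of 94 above 0, and between the libraries of the 5 it was 0.94.

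AM+CD was compared with AM580 and with CD3254, which share the AM+CD libraries, and the interaction shares libraries with all of these. The median member change was -0.32 for AM+CD against AM580, with 5 above 0, -0.05 for AM+CD against CD3254, with 32 above 0, and -0.34 for the interaction, with 5 above 0. Without AM580 replicate 1 these were -0.01, -0.05 and -0.04. Without AM+CD replicate 3, the library with the lowest members, they were -0.17, 0.09 and -0.17, so AM+CD against CD3254 changed sign. In a fit of the 10 libraries outside the 5 they were -0.06, -0.16 and -0.09. All 3 medians of all genes lay within 0.02 of 0.

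CD3254 against DMSO had a median of 0.02, with 54 of 94 members above 0. Its 2 smallest p were those of Atp5mpl, a small proteolipid of ATP synthase, at 0.25 ± 0.26, and Uqcrq at 0.29 ± 0.30 (log2, SE), each below 1 SE. AM+CD against DMSO had a median of -0.01, with 45 above 0. Between the libraries of the 5 (1 of each) AM+CD minus DMSO had a median of 0.29, with 86 above 0, and among the libraries outside the 5 it was -0.15, with 8 above 0, so the sign depended on the library set. The smallest p there were those of Ndufaf7, an assembly factor with methyltransferase activity, at -0.28 ± 0.19, and of Atp5s, coupling factor B, at -0.29 ± 0.25. Ndufaf7 stood at 17.3, 11.6 and 16.0 CPM with AM+CD, against 16.5, 20.1 and 17.8 CPM with DMSO, where the groups overlap.

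9-cis retinoic acid against DMSO had a median of 0.16, with 82 of 94 members above 0, and among libraries outside the 5 the median of 9-cis retinoic acid minus DMSO was 0.07, with 59 above 0. Cyc1 stood at 393, 547 and 476 CPM with 9-cis retinoic acid, against 310, 419 and 339 CPM with DMSO, a change of 0.41 ± 0.20 (log2, SE, edgeR, unadjusted p = 0.060, adjusted p = 1.00). Atp5g1 stood at 136, 221 and 196 CPM with 9-cis retinoic acid, against 123, 166 and 135 CPM with DMSO, a change of 0.38 ± 0.21. For each gene the groups overlap. Without 9-cis retinoic acid replicate 3, the shallow library, the median was 0.26.

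Summed over all members, AM580 libraries averaged 17895 ± 5690 CPM, CD3254 14648 ± 1322, AM+CD 14470 ± 1933, 9-cis retinoic acid 16115 ± 2185 and DMSO 14476 ± 2247 (SD, n = 3 each). The SD of AM580 was the largest of the groups, with replicate 1 at 24464 CPM, against 14695 and 14527 CPM in the other AM580 libraries. By complex the same pattern held, with complex V at 7566 ± 1991 CPM in AM580, 6261 ± 649 in CD3254, 6251 ± 644 in AM+CD, 6831 ± 939 in 9-cis retinoic acid and 6249 ± 1053 in DMSO.

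**Figure D5:**
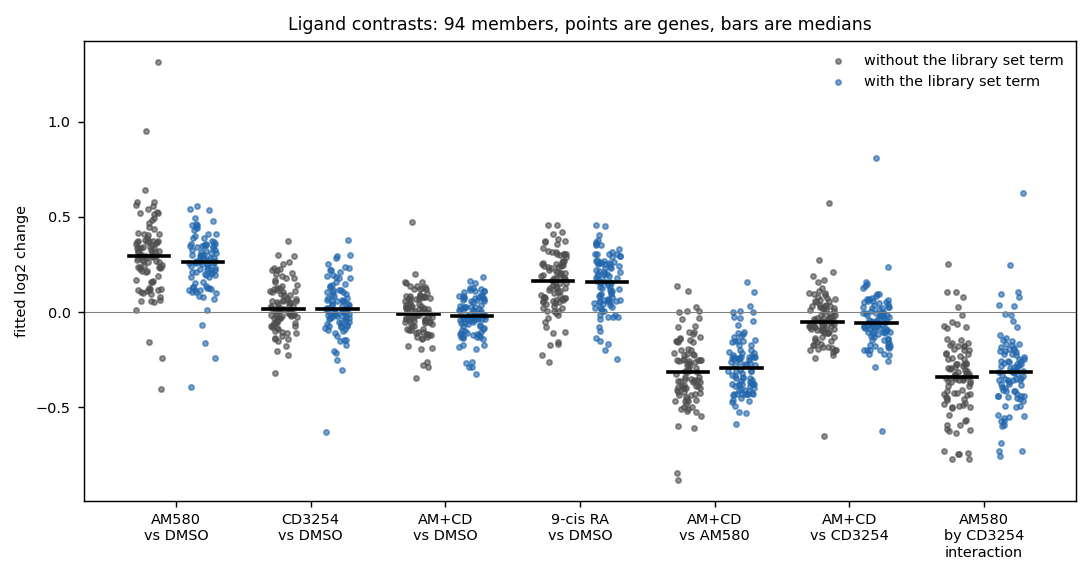
Fitted log2 changes of the 94 members in 7 contrasts, 1 point per gene and a bar at the median, without (grey) and with (blue) the library set as a term. AM580 against DMSO centres at 0.30 and 0.26, CD3254 and AM+CD against DMSO near 0, 9-cis retinoic acid at 0.16, and the contrast of AM+CD with AM580 and the interaction below 0; no point passed an adjusted p of 0.05.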

How the data were processed

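The authors deposited raw counts of reads per Ensembl gene for 15 libraries. The submitters' processing notes name FastQC, HISAT2 2.2.1, SAMtools 1.18, HTSeq and the mm10 build. How strand was set, and which annotation was counted, is not given in the sources used here. Symbols were matched for 42462 of 43432 ids. Reads without a gene (18.1% to 63.0%) stayed out of library sizes. Coordinates and exon lengths are GENCODE M21 (GRCm38). The exon length of a gene covers the exons of all its annotated transcripts, each base counted once.

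Counts were filtered by filterByExpr, scaled by TMM and tested two-sided in R 4.3.3 using edgeR 4.0.16 (robust quasi-likelihood, all 15 libraries, Benjamini-Hochberg adjustment per contrast, threshold 0.05, 10 residual degrees of freedom). The fit was tested on simulated data. Alternatives were DESeq2 1.42.0, other scalings and filters, a library set term, a replicate block and left-out libraries. CPM are TMM-scaled, and log2 CPM used a prior count of 2. Named members are the 2 highest and 2 lowest differences and 2 highest levels per complex, isoform pairs, and the smallest p per contrast with DMSO. Members, lists and the library set were chosen with earlier results of these data known. Replicate numbers were not taken as pairing. Correlations between same-numbered libraries could not decide this, since their sign followed the library set.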

Additional observations from a re-analysis of the deposited data

How the results depend on the processing

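No member was called in any of 7 contrasts under any of 25 other settings. In those settings at most 25 members reached an unadjusted p of 0.05. That was for 9-cis retinoic acid, with the library set term and with AM580 replicate 1 and 9-cis retinoic acid replicate 3 left out. The share of all genes at that unadjusted p was not counted in that edgeR fit, so the 25 cannot be set against a background. Over all genes, 12 passed an adjusted p of 0.05 there. A fit with the replicate number as a block also called 0 members. The numbers were not taken as pairing. Of 30 same-numbered pairs 20 had a correlation of deviations over 0.1, the lowest was -0.68, and 7 of 15 libraries matched best with their own number. All 8 pairs below 0 involve AM+CD replicate 1 or 2, and 4 of the 5 libraries that stand apart are replicate 1. Each of these 8 pairs joins 1 of the 5 libraries to 1 of the other 10. The sign of the correlations thus follows the library set, so they cannot decide for or against pairing. When each library was left out in turn, the members without overlap between the library sets numbered 6 to 8. Of these, 4 to 5 were higher and 2 to 4 lower. With the scaling kept, leaving out a library can only keep or add such members, so the 6 could not be lost. The share of all genes without overlap was not counted with libraries left out. The 4 lower were reached without AM580 replicate 1, which added Atp5a1 and Ndufb7, and without 9-cis retinoic acid replicate 3, which added Ndufaf1 and Ndufs1. With both libraries left out, a choice made after seeing the data, 10 members did not overlap, of which 6 were lower. Set against the median member, also chosen after seeing the data, 16 did not overlap, of which 11 were lower. Under total-count scaling 1 was lower, Ndufaf2, and Cox6a2 joined the higher members. The cause of these moves was not tested. The 6 named differences kept their direction in every setting tried. With libraries left out this was fixed in advance, since the 6 were chosen because their levels do not overlap. Among the settings, only the other scalings could have changed a direction. The unadjusted 95% interval of a ligand change reached a median of 0.56 (log2) to either side over the members, and 0.49 for AM580 with the library set term.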
